A study of Mus musculus with 6 samples.

Results

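The replication-dependent histone genes are described here across bulk RNA-seq libraries of the mouse mammary carcinoma line E0771. The 55 genes were chosen by name alone: they are the protein-coding genes of the deposited count table whose symbol starts with Hist1h, Hist2h, Hist3h or Hist4h, of 28063 genes in all. They comprise 5 linker histone H1 genes, 12 H2A, 15 H2B, 10 H3 and 13 H4 genes. The symbols place 47 of them in the Hist1 cluster, 5 in Hist2, 2 in Hist3 and 1 in Hist4. A symbol says nothing of when a gene is transcribed, and the rule also takes in Hist1h2ba, a testis-specific H2B.

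The libraries came from 3 groups of E0771 cells with 2 libraries each. Malt1_PD cells expressed a Malt1 form that the labels name the PD mutant without spelling the abbreviation out, Malt1_WT cells expressed wild-type Malt1, and Vector cells carried the control vector. Malt1 is a paracaspase, a protease that feeds into NF-kB signalling. All 3 groups, the control included, had been kept with activated CD8 T cells for 12 hours at an effector-to-target ratio of 3, then rinsed, trypsinised, replated and lysed 6 hours later, so no group without T cells is compared. Total RNA was made into directional paired-end libraries. Whether a group's 2 libraries stem from separate cultures is not stated in the labels. The p-values weigh a difference between groups against the spread between libraries of a group, and that spread may be only technical.

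Replication-dependent histone genes supply the histones that package new DNA. They are clustered, mostly without introns, and transcribed mainly in S phase. Their mRNAs normally end not in a poly(A) tail but shortly after a conserved hairpin, the stem-loop, which is bound by the protein SLBP, and the transcript is cleaved just past it by a machinery that includes the U7 snRNP. When DNA replication stops, these mRNAs are degraded. Some of the genes can also give longer, polyadenylated transcripts that read past the stem-loop. In bulk RNA, fewer cells in S phase and less histone mRNA per cell cannot be told apart.

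The stem-loops are shown first, since they mark where the usual mRNA of each gene ends. A stem-loop was searched in the GENCODE M21 transcript of each gene (build GRCm38), and 39 of the 55 models held one after the stop codon. It began 21 to 54 nt after the stop codon, with a median of 31 nt. The 16-base stem-loop is in capitals and up to 5 bases on each side are in lower case, read 5′ to 3′ on the gene's strand as DNA. The set shows H1, H2A, H2B, H3 and H4 genes whose levels are described most fully and some of the forms that differ from the common one:
Hist1h1c (H1): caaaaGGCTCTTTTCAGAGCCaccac
Hist1h1e (H1): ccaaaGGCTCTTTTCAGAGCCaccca
Hist1h2ae (H2A): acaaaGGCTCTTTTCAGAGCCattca
Hist1h2be (H2B): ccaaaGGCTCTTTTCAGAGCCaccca
Hist1h2bb (H2B): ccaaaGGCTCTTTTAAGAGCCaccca
Hist1h3f (H3): aaaacGGCTCTTTTAAGAGCCacctc
Hist1h3g (H3): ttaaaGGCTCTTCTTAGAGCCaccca
Hist1h4d (H4): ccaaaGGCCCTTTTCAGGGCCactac
Hist1h4j (H4): ctaaaGGTCCTTTTCAGGACCaccac
Hist2h4 (H4): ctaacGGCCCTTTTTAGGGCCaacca

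These lie at chr13:23739507-23739532 on the plus strand for Hist1h1c, chr13:23621777-23621802 on the minus strand for Hist1h1e and chr13:23570663-23570688 on the minus strand for Hist1h2ae. Hist1h2be has its stem-loop at chr13:23585526-23585551 on the minus strand and Hist1h2bb at chr13:23747198-23747223 on the plus strand. Those of Hist1h3f (chr13:23544927-23544952), Hist1h3g (chr13:23535884-23535909), Hist1h4d (chr13:23581945-23581970) and Hist1h4j (chr13:21735432-21735457) are on the plus strand, and that of Hist2h4 (chr3:96262934-96262959) is on the minus strand. The 39 genes shared 8 distinct 16-base forms. The form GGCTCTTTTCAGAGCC, as in Hist1h1c, was held by 21 genes, and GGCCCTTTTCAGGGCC, as in Hist1h4d, by 7. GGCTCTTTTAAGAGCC was held by 4, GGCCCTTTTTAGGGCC and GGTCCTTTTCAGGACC by 2 each, and the remaining 3 forms by 1 gene each. A match to the same search anywhere in a transcript was held by 118 other protein-coding genes, 0.539% of them.

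The annotated models differ in how far they run past the stem-loop. In 18 genes the model ended within 100 nt after it, and in 21 it ran on for over 100 nt. In 16 genes no match was found in the model, and in 11 of these the model has no base after the stop codon. For Hist1h1c the model runs on for 840 nt after the stem-loop, for Hist1h1e for 1153 nt and for Hist1h1d for 4884 nt, whereas Hist1h2bb ends 23 nt after it. The models were 312 to 7425 nt long with a median of 614 nt, against a median of 2466 nt over all genes of the table, and 51 of the 55 have a single exon.

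**Figure D1:**
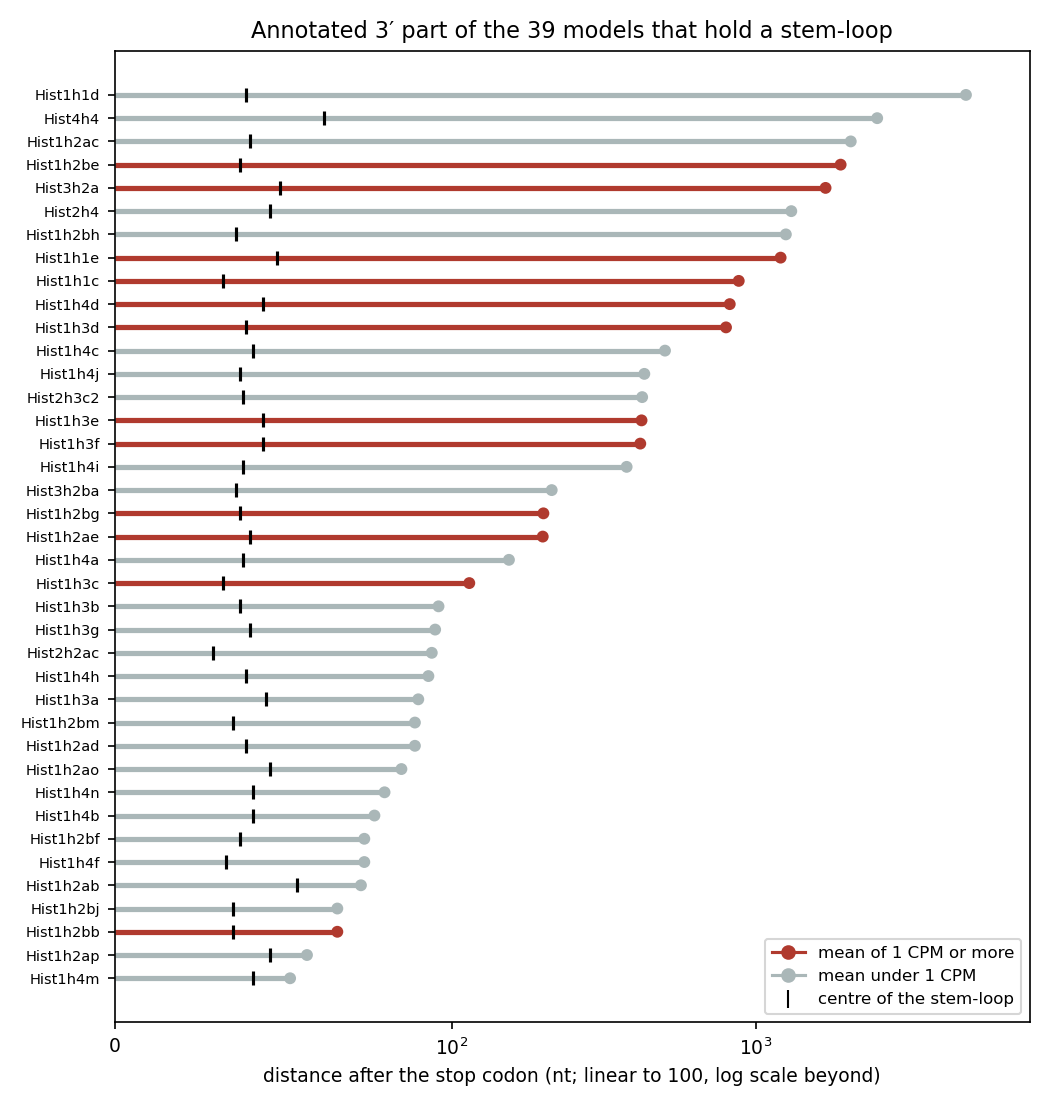
Annotated transcript after the stop codon for the 39 genes with a stem-loop, with distance in nt on the x axis (linear to 100 nt, log scale beyond). Lines end where the model ends, black ticks mark the centre of the stem-loop, and red marks genes with a mean of 1 CPM or more: 10 of the 12 red genes have a model that runs on over 100 nt past the stem-loop.

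The 47 genes of the Hist1 cluster lie between positions 21715763 and 23934156 of chromosome 13, a span of 2.218 Mb. The Hist2 genes are on chromosome 3, the Hist3 genes on chromosome 11 and the Hist4 gene on chromosome 6. Many copies are close to identical. Of the 55 genes, 44 share at least one 150-base stretch, the length of a read, with a transcript of another gene, and 14 share over 50% of their stretches. The 14 include Hist1h2ao, Hist1h2ap, Hist1h4k and Hist1h3i. Hist1h1c, Hist1h1a, Hist1h1d, Hist2h2be and Hist1h4d share none. The authors' treatment of reads with several matches is not given in the sources used here. Values of the sharing genes are less certain for this reason. Hist1h1e and Hist1h2be overlap each other on the same strand, and 13 genes overlap another gene on the other strand.

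The promoters were compared by type. Of the 55 genes, 49 were matched to a RefSeq promoter (GRCm38.p6, 250 bases before to 50 after the start). The octamer ATTTGCAT, the motif of the factor OCT1 in H2B genes, was searched on both strands and found in 5 of 13 H2B and 5 of 11 H2A promoters. It was in none of the H1, H3 and H4 promoters, and in 1.75% of the 27025 promoters of all genes. The windows below hold 30 bases with the octamer in capitals, on the gene's strand, and show that Hist1h2ae and Hist1h2bg share 1 octamer between diverging starts:
Hist1h2bg (H2B): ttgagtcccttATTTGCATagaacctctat
Hist1h2ae (H2A): atagaggttctATGCAAATaagggactcaa
Hist1h2bb (H2B): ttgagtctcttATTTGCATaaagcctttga
Hist1h2be (H2B): agtaagacttaATTTGCATaagactgccta

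The first pair is chr13:23571330-23571359 read on the plus and the minus strand, and the others are chr13:23746633-23746662 on the plus strand and chr13:23586019-23586048 on the minus strand. CCAAT, on either strand, was in 40 of the 49 promoters, among them every matched H1, H2A, H2B and H3 promoter but 3 of 12 H4 promoters, against 37.9% of all promoters. TATAAA was in 31 of the 49, against 14.2% of all. AAACACA, the H1 box, was in 4 of the 5 H1 promoters and in 3 of the others, against 7.14% of all. The shared octamer of Hist1h2ae and Hist1h2bg lies 8 bases from a TATAAA and overlaps no other motif searched. A match describes letters only.

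The libraries held 14045390 to 19962014 counts in genes. A floor of 3 counts equals 0.150 to 0.214 CPM and covers counting error only. CPM here are counts scaled to the library's total with TMM factors. Malt1 was at 106 and 95.7 CPM in Malt1_PD cells, 67.2 and 82.1 CPM in Malt1_WT cells, and 23.8 and 31.3 CPM in Vector cells. Both Malt1 groups were above both Vector libraries. Of the tumour line's markers, Vim was at 3776 to 4645 CPM and Krt8 at 108 to 124 CPM, while Krt18 and Cdh1 were under 1 CPM in every library. Epcam was at 6.16 to 8.97 CPM. Of the fibroblast markers, Pdgfra was at 123 to 147 CPM and Dcn at 6.05 to 12.5 CPM. Of 14 T cell markers, 10 were in the table, and they summed to 35 and 38 counts in Malt1_PD, 21 and 45 in Malt1_WT, and 43 and 43 in Vector libraries. Most of these counts were Lck, and Cd8a had no count in 5 of the 6 libraries. The Malt1_PD replicate 1 library stood apart in Rn7sk and in an rRNA gene, both of which give RNA without a poly(A) tail. Rn7sk, the 7SK RNA, had 379 and 29 counts in Malt1_PD, 26 and 23 in Malt1_WT and 37 and 15 in Vector libraries. The rRNA gene, CT010467.1, was at 3932 and 515 CPM in Malt1_PD, against 1037 and 549 CPM in Malt1_WT libraries and 1313 and 824 CPM in Vector libraries. Mitochondrial rRNA held 0.196% of counts in that library, against 0.0795 to 0.112% in the other 5. The misc_RNA genes, a class that includes Rn7sk, held 0.00374% of counts there, against 0.000722 to 0.000940% in the other 5. The snRNA genes, the snoRNA genes and Rny1 did not set that library apart. Its snRNA genes held 0.00186% and its snoRNA genes 0.00420% of counts, within the ranges of 0.00166 to 0.00221% and 0.00401 to 0.00480% over the other 5 libraries, and Rny1, a Y RNA, had 5 counts there, against 4 to 18 in the others. Whether the kit was used with poly(A) selection or rRNA depletion is not given in the sources used here.

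Histone mRNA was a very small share of these libraries. The 55 genes together held 1425 and 1188 counts in Malt1_PD, 1071 and 1387 in Malt1_WT, and 1614 and 1262 in Vector libraries. As a share this was 0.00901% (95% interval by Clopper-Pearson 0.00855 to 0.00949) and 0.00709% (0.00670 to 0.00751) in Malt1_PD, and 0.00763% (0.00718 to 0.00810) and 0.00695% (0.00659 to 0.00732) in Malt1_WT. In Vector libraries it was 0.00900% (0.00857 to 0.00945) and 0.00701% (0.00663 to 0.00741). In each group replicate 1 was above replicate 2, and the groups overlapped.

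Counts were concentrated in a few genes. Hist1h1c, the linker histone H1.2, held 36.4% of all histone counts, and the 5 genes with most counts held 56.2%. H1 genes had 42.0% of the counts, H2B genes 23.3%, H3 genes 16.7%, H2A genes 9.84% and H4 genes 8.24%. Only 15 of the 55 genes averaged 1 CPM or more. All 6 libraries had a count for 41 genes, whereas 9 genes, such as Hist1h2bf, Hist1h2bj, Hist1h4i and Hist2h2ab, had 3 counts or fewer in every library. The counts were also split by where the annotated model ends, a split made after the values were seen. The 21 models that run on over 100 nt past the stem-loop held 70.1% of the histone counts, the 18 that end within 100 nt held 12.7%, and the 16 without a match held 17.2%. Of the 15 genes at 1 CPM or more, 10 had a model that runs on, 2 had one that ends within 100 nt and 3 had no match. A longer model collects more reads at the same abundance, and the table gives no position within a gene.

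Per length, Hist1h1c was also the highest, with a mean over the 6 libraries of 18.1 RPKM (CPM per kilobase of the deposited gene length). Hist1h2ae followed with 5.20 RPKM, Hist1h2bc with 4.59, Hist1h2bb with 4.50, Hist1h2bg with 3.26 and Hist1h3e with 3.05 RPKM. The library ranges of Hist1h2ae, Hist1h2bc and Hist1h2bb overlap each other, as do those of Hist1h2bg and Hist1h3e. On the same scale, some replication-independent variants, whose mRNAs are polyadenylated, stood far higher. H1f0, the linker histone H1.0, averaged 111 RPKM in Malt1_PD, 110 in Malt1_WT and 126 in Vector cells. H2afz, which encodes H2A.Z, averaged 185 RPKM in Malt1_PD, 184 in Malt1_WT and 198 in Vector cells. H3f3b, which encodes H3.3, averaged 191 RPKM in Malt1_PD, 191 in Malt1_WT and 196 in Vector cells. Others did not: H2afj, an H2A variant, averaged 13.97 RPKM in Malt1_PD, 14.1 in Malt1_WT and 14.1 in Vector cells, below Hist1h1c.

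**Figure D2:**
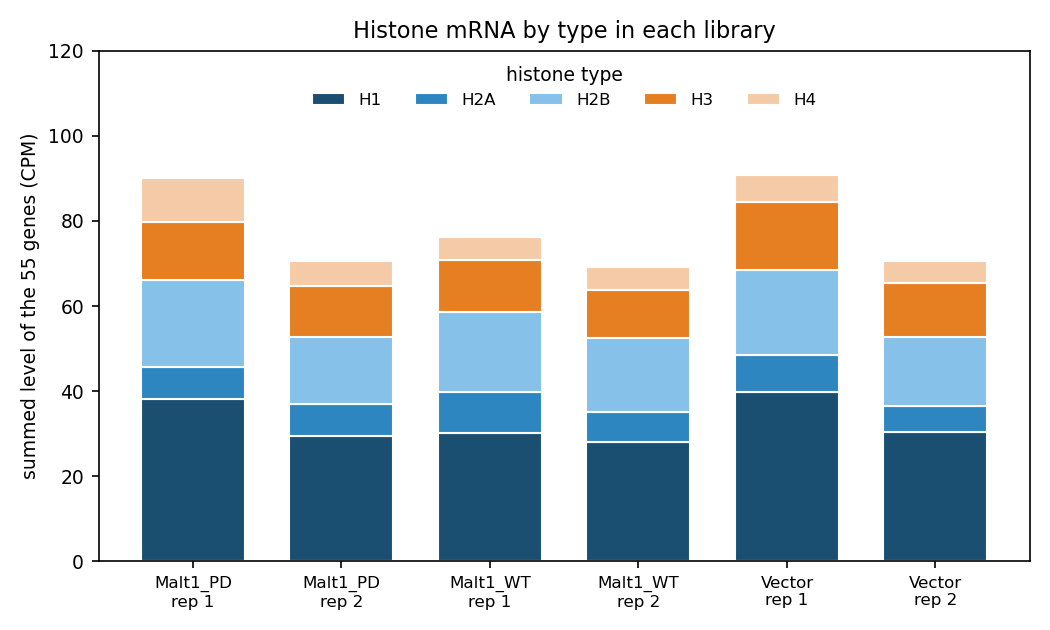
Summed level of the 55 histone genes in CPM (y axis, from 0) in each library, stacked by histone type. Malt1_PD replicate 1 and Vector replicate 1 reach 90.1 and 90.9 CPM and the other 4 libraries lie between 69.2 and 76.2 CPM, with H1 genes the lowest and tallest segment of each bar.

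Summed over the 55 genes, histone level did not separate the groups. It was 90.1 and 70.6 CPM in Malt1_PD, 76.2 and 69.2 CPM in Malt1_WT libraries and 90.9 and 70.7 CPM in Vector libraries. The means were 80.4 ± 13.8 CPM in Malt1_PD, 72.7 ± 5.00 CPM in Malt1_WT cells and 80.8 ± 14.3 CPM in Vector cells (SD, n = 2 each). The log2 ratio of the means was -0.01 for Malt1_PD against Vector, -0.15 for Malt1_WT against Vector and 0.14 for Malt1_PD against Malt1_WT, all within the pooled SD of 0.21 between libraries of a group. An exact permutation test of 2 libraries against 2 cannot reach 0.05, so no test was made of this sum. Without Hist1h1c the 3 ratios were 0.10, -0.09 and 0.19. Without Malt1_PD replicate 1 the ratio was -0.20 for Malt1_PD against Vector and -0.04 for Malt1_PD against Malt1_WT.

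By type, H1 genes summed to 38.1 and 29.5 CPM in Malt1_PD, 30.3 and 28.02 CPM in Malt1_WT libraries and 39.9 and 30.5 CPM in Vector libraries, the Malt1_WT values lying below both Vector values. H2A genes summed to 7.65 and 7.43 CPM in Malt1_PD, 9.47 and 7.18 CPM in Malt1_WT libraries and 8.61 and 5.94 CPM in Vector libraries. H2B genes summed to 20.4 and 15.9 CPM in Malt1_PD, 18.9 and 17.2 CPM in Malt1_WT libraries and 19.99 and 16.4 CPM in Vector libraries. For H2A and H2B every group overlapped every other. H3 genes summed to 13.5 and 11.9 CPM in Malt1_PD, 12.2 and 11.4 CPM in Malt1_WT libraries and 16.04 and 12.5 CPM in Vector libraries, the Malt1_WT values lying below both Vector values. H4 genes summed to 10.4 and 5.82 CPM in Malt1_PD, 5.41 and 5.39 CPM in Malt1_WT libraries and 6.36 and 5.32 CPM in Vector libraries. The H4 log2 ratio of Malt1_PD against Malt1_WT, 0.59, came mostly from the 1 high Malt1_PD library, the one with the high Rn7sk and rRNA.

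Of the 55 genes, 28 passed the low-count filter and were tested among 14675 genes, so counts below are over these 28 and not over all members. They were 4 H1, 3 H2A, 8 H2B, 6 H3 and 7 H4 genes, with a median of 20 counts per library. The 27 left out had too few counts for the filter. Hist1h3b and Hist1h2bl reached its level in Malt1_PD libraries only, so their place among the genes higher there was partly set by the filter. Hist1h3b was at 0.633 and 0.773 CPM in Malt1_PD and at up to 0.499 CPM in the other libraries. For Hist1h2bl this was 0.822 and 0.594 CPM, against up to 0.560 CPM. Both are in the counts of higher genes below. Hist1h4h and Hist1h4f reached the filter's level in no Vector library, Hist2h4 and Hist4h4 in no Malt1_WT library, and Hist1h2bm in no Malt1_PD library. Their differences from those groups may therefore also be partly set by the filter, and they too are in the counts below. The tests were edgeR's quasi-likelihood tests, with Benjamini-Hochberg adjustment over all genes tested.

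**Figure D3:**
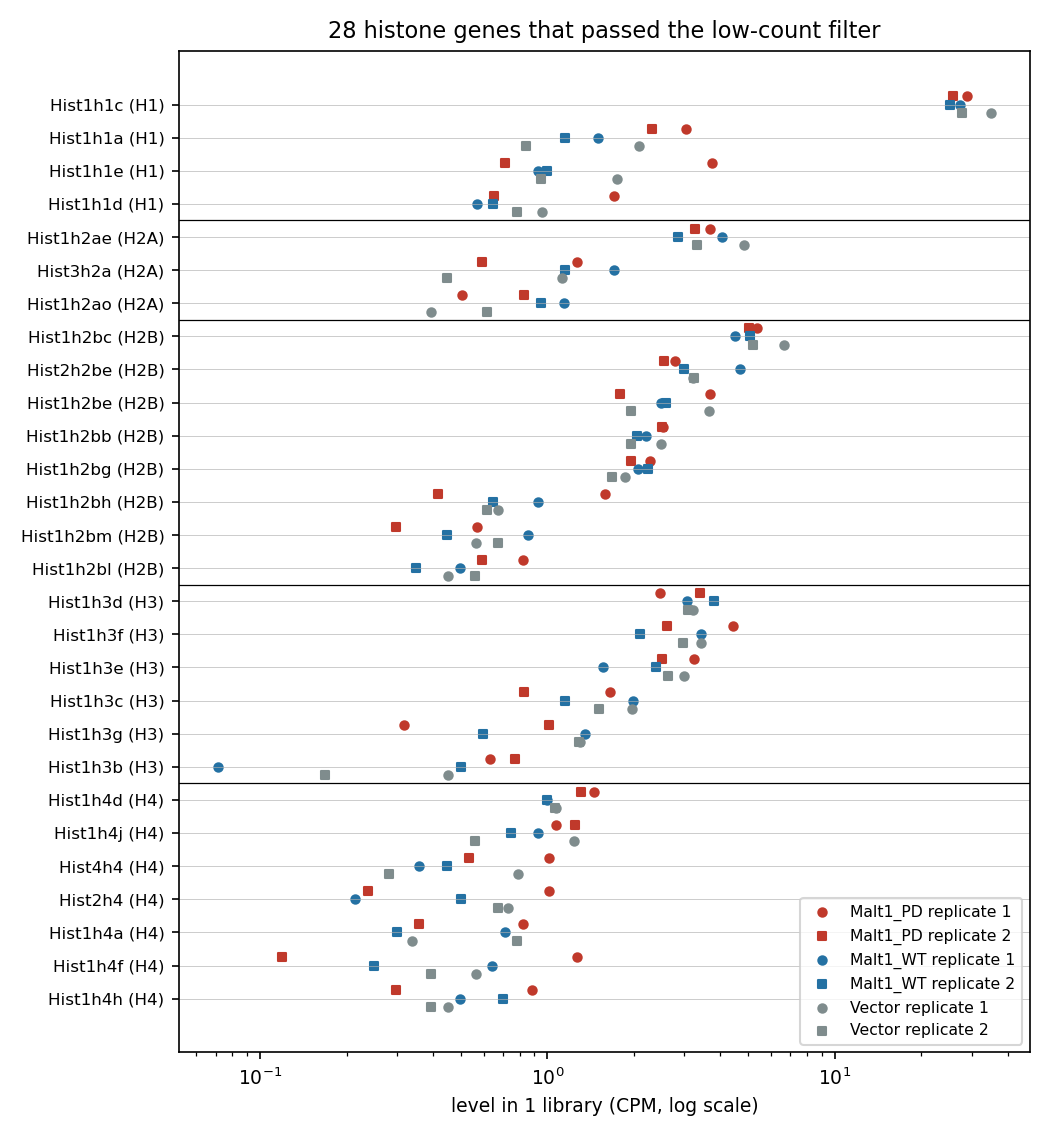
Level of each of the 28 tested histone genes in each library (CPM, log scale), grouped by histone type, with circles for replicate 1 and squares for replicate 2 and colours for Malt1_PD, Malt1_WT and Vector. Hist1h1c stands apart at 25.2 to 35.0 CPM, and Malt1_PD replicate 1 is the highest library for 16 of the 28 genes.

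Between Malt1_PD and Vector cells no histone gene was called. At an adjusted p under 0.05, 0 of the 28 were called, against 0.00681% of all genes tested (1 gene). At an unadjusted p under 0.05 the count was also 0, against 8.61% of all genes. The DESeq2 Wald test called 0 of the 13 that it gave an adjusted p. At an unadjusted p under 0.05 it gave 1 histone gene, which need not be among these 13, beside 2.13% of all genes. The libraries of the groups did not overlap for 8 genes, 6 higher and 2 lower in Malt1_PD, which is 28.6% against 38.1% of all genes. The median log2 fold change was 0.20 over the 28 genes, 18 above and 10 below 0, beside -0.0011 over all genes. Without Malt1_PD replicate 1 that median was -0.31.

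Hist1h1a, the linker histone H1.1, had the smallest p among the higher genes. It was at 3.04 and 2.32 CPM in Malt1_PD libraries, against 2.08 and 0.840 CPM in Vector libraries. Both Malt1_PD values were above both Vector values, and the Vector libraries differed from each other by more than the Malt1_PD ones. Its log2 fold change was 0.87 (SE 0.43, adjusted p = 0.619), and it lay between 0.36 without Vector replicate 2 and 1.66 without Vector replicate 1. Hist1h3b, a canonical H3 gene, was at 10 and 13 counts in Malt1_PD, against 8 and 3 counts in Vector libraries. This gene passed the filter only through its Malt1_PD libraries. The log2 fold change of Hist1h3b was 1.17 (SE 0.75, adjusted p = 0.717), and it was 0.64 without Vector replicate 2 and 2.02 without Vector replicate 1. Hist1h4d, one of the many genes for the same H4 protein, was at 1.46 and 1.31 CPM in Malt1_PD, against 1.07 and 1.06 CPM in Vector libraries. These libraries did not overlap, with a log2 fold change of 0.37 (SE 0.35, adjusted p = 0.797).

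Among the lower genes, Hist1h3g, an H3 gene, was at 5 and 17 counts in Malt1_PD, against 23 and 23 counts in Vector libraries. For Hist1h3g the log2 fold change was -0.94 (SE 0.59, adjusted p = 0.711), with a wide gap between the Malt1_PD libraries, and it was -0.35 without Malt1_PD replicate 1 and -2.003 without Malt1_PD replicate 2. Hist1h1c was at 28.8 and 25.7 CPM in Malt1_PD libraries, against 35.0 and 27.7 CPM in Vector libraries. The groups overlapped, and the log2 fold change was -0.20 (SE 0.13, adjusted p = 0.728). Hist1h3c, also an H3 gene, was at 26 and 14 counts in Malt1_PD, against 35 and 27 counts in Vector libraries, with a log2 fold change of -0.50 (SE 0.45, adjusted p = 0.789). It was -1.06 without Malt1_PD replicate 1 and -0.08 without Malt1_PD replicate 2.

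Between Malt1_WT and Vector cells no histone gene was called either. At an adjusted p under 0.05 the count was 0 of 28, against 0.00681% of all genes. At an unadjusted p under 0.05 it was 0, against 7.09% of all genes. DESeq2 gave 0 under both thresholds, against 1.76% of all genes at an unadjusted p under 0.05. The libraries did not overlap for 10 genes, 4 higher and 6 lower in Malt1_WT, which is 35.7% against 32.6% of all genes and so near the background. The median log2 fold change was -0.17, with 9 genes above and 19 below 0. It was 0.07 without Vector replicate 1 and 0.02 without Malt1_WT replicate 2. All 4 tested H1 genes lay below 0, at -0.16 to -0.50, but without Vector replicate 1 Hist1h1a and Hist1h1e were at 0.63 and 0.02.

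Hist1h1c, the gene with most counts, was at 27.2 and 25.2 CPM in Malt1_WT libraries, against 35.0 and 27.7 CPM in Vector libraries. Both Malt1_WT values were below both Vector values, with a log2 fold change of -0.26 (SE 0.13, adjusted p = 0.750). Without Vector replicate 1 its log2 fold change was -0.09. Hist1h3e, an H3 gene, was at 1.57 and 2.39 CPM in Malt1_WT, against 2.98 and 2.63 CPM in Vector libraries, with a log2 fold change of -0.48 (SE 0.30, adjusted p = 0.806). Hist1h2bc, an H2B gene, was at 4.48 and 5.09 CPM in Malt1_WT, against 6.64 and 5.21 CPM in Vector libraries, with a log2 fold change of -0.30 (SE 0.20, adjusted p = 0.818). The value of Hist1h3e was -0.23 without Malt1_WT replicate 1 and -0.84 without Malt1_WT replicate 2, and that of Hist1h2bc was -0.12 without Vector replicate 1 and -0.46 without Vector replicate 2.

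The 3 higher genes with the smallest p in this comparison were H2A and H2B genes. Hist1h2ao, an H2A gene that shares most of its sequence with other copies, was at 16 and 19 counts in Malt1_WT, against 7 and 11 counts in Vector libraries. The log2 fold change of Hist1h2ao was 1.02 (SE 0.48, adjusted p = 0.720). Hist3h2a, an H2A gene outside the large cluster, was at 24 and 23 counts in Malt1_WT, against 20 and 8 counts in Vector libraries, with a log2 fold change of 0.83 (SE 0.55, adjusted p = 0.815). It was 0.32 without Vector replicate 2 and 1.63 without Vector replicate 1. Hist1h2bg was at 2.06 and 2.24 CPM in Malt1_WT, against 1.86 and 1.68 CPM in Vector libraries, with a log2 fold change of 0.29 (SE 0.28, adjusted p = 0.890). Hist1h2ae, across the shared promoter from Hist1h2bg, was at 4.06 and 2.84 CPM in Malt1_WT, against 4.84 and 3.31 CPM in Vector libraries. Hist1h1a was at 1.49 and 1.15 CPM in Malt1_WT, between the 2 Vector values, with a log2 fold change of -0.16 (SE 0.46), which became 0.63 without Vector replicate 1 and 0.04 without Malt1_WT replicate 2.

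Between Malt1_PD and Malt1_WT cells, which differ in the form of Malt1 they express, no histone gene was called. At an adjusted p under 0.05 the count was 0 of 28, against 0.00681% of all genes. At an unadjusted p under 0.05 it was 1, Hist1h1a, which is 3.57% of the 28 against 1.92% of all genes. DESeq2 gave 0 under both thresholds, against 0.299% of all genes at an unadjusted p under 0.05. The libraries did not overlap for 11 genes, 9 higher and 2 lower in Malt1_PD, which is 39.3% against 32.1% of all genes. The median log2 fold change was 0.26, with 19 genes above and 9 below 0, and was -0.06 without Malt1_PD replicate 1. This comparison shares its Malt1_PD libraries with the first and its Malt1_WT libraries with the second, and those both use the Vector libraries, so the 3 are not independent.

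Hist1h1a was at 3.04 and 2.32 CPM in Malt1_PD, against 1.49 and 1.15 CPM in Malt1_WT libraries. In counts this was 48 and 39 in Malt1_PD, against 21 and 23 in Malt1_WT libraries. Both Malt1_PD libraries were above both Malt1_WT libraries, and the log2 fold change was 1.03 (SE 0.44, adjusted p = 1). It was 0.82 without Malt1_PD replicate 1. Hist1h1e, the linker histone H1.4, was at 3.73 and 0.713 CPM in Malt1_PD, against 0.925 and 0.997 CPM in Malt1_WT libraries. Its log2 fold change of 1.19 (SE 0.70, adjusted p = 1) came from Malt1_PD replicate 1 and was -0.43 without that library. Hist1h1d, the linker histone H1.3, was at 1.71 and 0.654 CPM in Malt1_PD, against 0.569 and 0.648 CPM in Malt1_WT libraries. For Hist1h1d the log2 fold change was 0.93 (SE 0.54, adjusted p = 1), and 0.09 without Malt1_PD replicate 1.

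Hist1h1c was at 28.8 and 25.7 CPM in Malt1_PD, against 27.2 and 25.2 CPM in Malt1_WT libraries, with a log2 fold change of 0.06 (SE 0.14, adjusted p = 1) that was -0.026 without Malt1_PD replicate 1. Hist1h1b, the linker histone H1.5, did not pass the filter and had 12 and 1 counts in Malt1_PD, 1 and 0 in Malt1_WT, and 1 and 3 in Vector libraries. The H1 genes differed among themselves. Hist1h1a was above all Malt1_WT and Vector libraries in both Malt1_PD libraries, Hist1h1e, Hist1h1d and Hist1h1b in Malt1_PD replicate 1 only, and Hist1h1c in neither.

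The 3 lower genes with the smallest p were H2A and H2B genes. Hist2h2be, an H2B gene, was at 2.78 and 2.56 CPM in Malt1_PD, against 4.70 and 2.99 CPM in Malt1_WT libraries. For Hist2h2be the log2 fold change was -0.50 (SE 0.28, adjusted p = 1), and Vector libraries held 3.21 and 3.25 CPM. Hist1h2ao was at 8 and 14 counts in Malt1_PD, against 16 and 19 counts in Malt1_WT libraries, with a log2 fold change of -0.62 (SE 0.47, adjusted p = 1). Hist3h2a was at 20 and 10 counts in Malt1_PD, against 24 and 23 counts in Malt1_WT libraries, with a log2 fold change of -0.60 (SE 0.55, adjusted p = 1). In this comparison, the value of Hist2h2be was -0.16 without Malt1_WT replicate 1 and -0.81 without Malt1_WT replicate 2. Those of Hist1h2ao and Hist3h2a were -0.31 and -1.24 without Malt1_PD replicate 1, and -1.02 and -0.15 without Malt1_PD replicate 2.

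**Figure D4:**
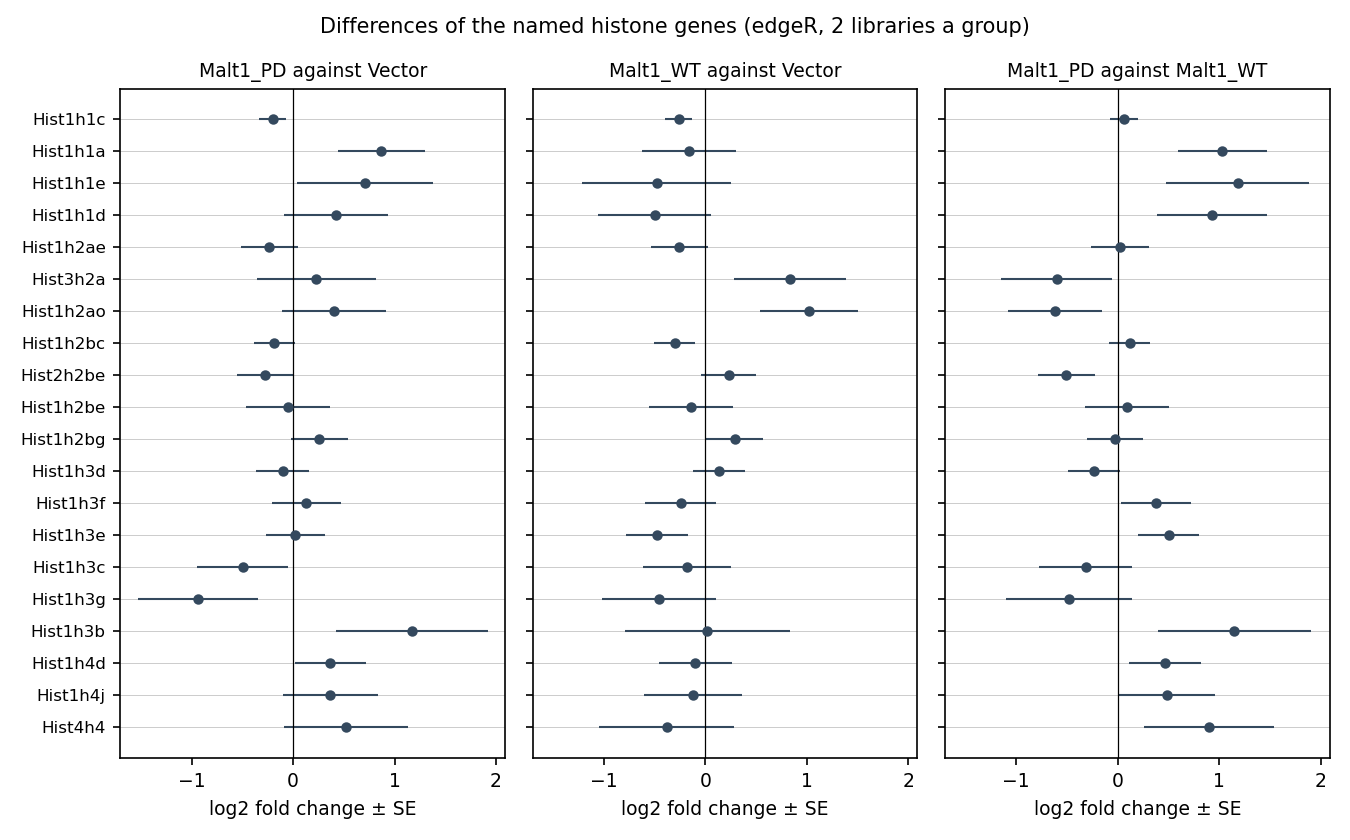
Log2 fold change with its SE (x axis, edgeR) of the named histone genes in the 3 comparisons, 2 libraries a group. Hist1h1a and Hist1h1e are at 1.03 and 1.19 in Malt1_PD against Malt1_WT, Hist1h1c is between -0.26 and 0.06 in the 3 panels, and no gene was called.

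For the core histone genes Hist1h3d, Hist1h3f and Hist1h2be every group overlapped every other. Hist1h3d was at 2.47 and 3.39 CPM in Malt1_PD, 3.06 and 3.79 CPM in Malt1_WT libraries, and 3.21 and 3.08 CPM in Vector libraries. Hist1h3f was at 4.43 and 2.61 CPM in Malt1_PD, 3.42 and 2.09 CPM in Malt1_WT libraries, and 3.43 and 2.97 CPM in Vector libraries. Hist1h2be was at 3.67 and 1.78 CPM in Malt1_PD, 2.49 and 2.59 CPM in Malt1_WT libraries, and 3.66 and 1.96 CPM in Vector libraries. In each of these some libraries of a group differed by more than any 2 group means, and Hist1h2be follows the same 2 high libraries as Hist1h1e, which it overlaps. Of the H4 genes, Hist1h4j was at 17 and 21 counts in Malt1_PD, 13 and 15 in Malt1_WT, and 22 and 10 in Vector libraries. Hist4h4, the gene outside the 3 clusters, was at 16 and 9 counts in Malt1_PD, 5 and 9 in Malt1_WT, and 14 and 5 in Vector libraries.

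By type, the median log2 fold change of the tested H1 genes was 0.57 for Malt1_PD against Vector, -0.37 for Malt1_WT against Vector and 0.98 for Malt1_PD against Malt1_WT. For H4 genes the 3 medians were 0.37, -0.18 and 0.49, for H2B genes 0.06, -0.02 and 0.10, for H3 genes -0.04, -0.21 and 0.07, and for the 3 H2A genes 0.23, 0.83 and -0.60. The Malt1_PD medians of H1 and H4 genes rest on Malt1_PD replicate 1. Without that library the H1 median was -0.35 for Malt1_PD against Vector and 0.03 for Malt1_PD against Malt1_WT, and the H4 median was -0.50 and -0.44. Without it the H2A and H2B medians for Malt1_PD against Vector were -0.32 and -0.29. For Malt1_WT against Vector, the H1 median was -0.03 and the H4 median 0.10 without Vector replicate 1. Split by the deposited length, the 13 tested models over 1000 nt had medians of 0.13, -0.24 and 0.35. The 15 of 1000 nt or less had medians of 0.26, -0.16 and 0.25. The 276 other tested protein-coding genes of 1000 nt or less had medians of -0.05, -0.02 and -0.01.

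The libraries of a group differed in histone genes. Malt1_PD replicate 1 was the highest of the 6 libraries for 16 of the 28 tested genes (57.1%), against 12.0% of all genes tested. Malt1_PD replicate 2 was the highest for 2, the Malt1_WT libraries for 6 and 1, and the Vector libraries for 3 and 0. Within Malt1_PD, replicate 1 was above replicate 2 for 23 of 28 genes, with a median difference of 0.39 on the log2 scale, and within Vector also for 23, with a median of 0.23. Within Malt1_WT it was above for 16, with a median of 0.17, and over all genes the medians were between -0.00016 and 0.01. In the Malt1_PD pair, genes whose model runs on past the stem-loop had a median difference of 0.76, those whose model ends within 100 nt 0.37, and those without a match 0.25 (SD 0.73, 1.22 and 0.16 over 16, 8 and 4 genes). The other pairs did not repeat this order, with -0.03, 0.49 and 0.38 in Malt1_WT and 0.23, 0.24 and 0.16 in Vector. Rn7sk and the rRNA gene were highest in the same library, and their part in the histone differences was not tested.

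**Figure D5:**
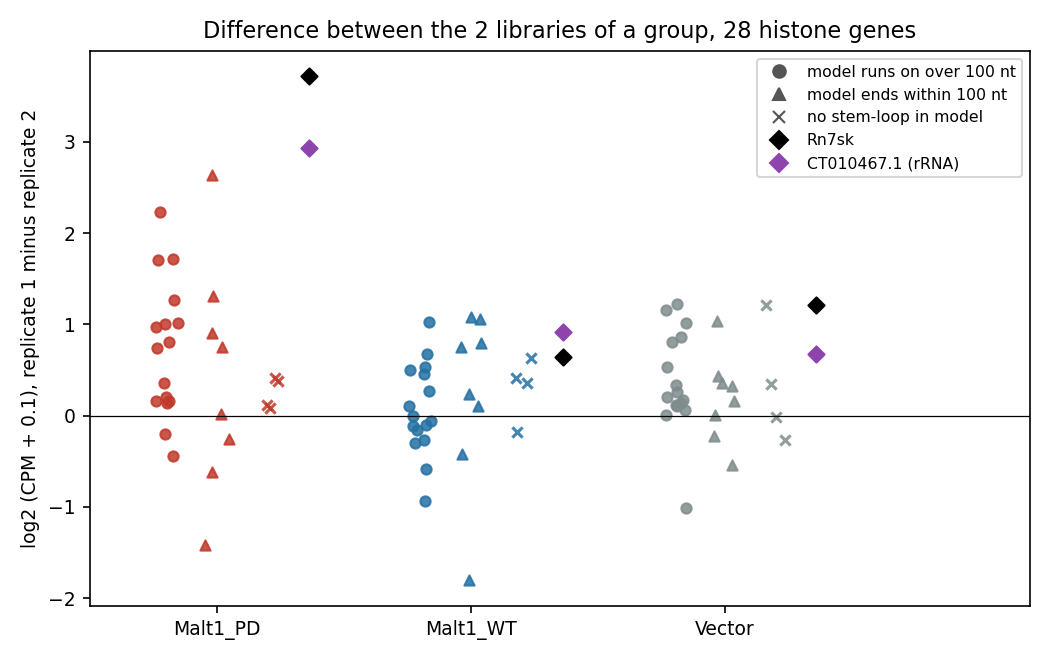
Difference between replicate 1 and replicate 2 of each group, as log2 of CPM + 0.1 (y axis), for the 28 tested histone genes, marked by how their annotated model ends, with Rn7sk and the rRNA gene CT010467.1 as diamonds. Most histone genes of the Malt1_PD and Vector pairs lie above 0, 23 of 28 in each, and Rn7sk and CT010467.1 lie highest in the Malt1_PD pair.

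The histone genes were measured less precisely than most genes. The median SE of a log2 fold change over the 28 genes was 0.48 for Malt1_PD against Vector, 0.48 for Malt1_WT against Vector and 0.47 for Malt1_PD against Malt1_WT, beside 0.15 over all genes in each. For Hist1h1c it was 0.13, 0.13 and 0.14 in the same order. The libraries of a group differed by more than counting error, which alone gives a chi-square per gene of about 1. Over 35 to 39 histone genes it was 3.99 in Malt1_PD, 1.69 in Malt1_WT and 2.62 in Vector libraries. Over all genes it was 6.7, 7.37 and 21.6 in the same order. At a given spread this value rises with a gene's counts. The tested histone genes had a median mean of 1.10 CPM, against 22.4 CPM over all genes tested. It therefore cannot show whether the excess is particular to histone genes. Among the genes below the filter, named after their values were seen, Hist1h2ab, an H2A gene, had 7 and 15 counts in Malt1_PD, 6 and 6 in Malt1_WT, and 2 and 2 in Vector libraries. With no filter its log2 fold change for Malt1_PD against Vector was 2.51 (SE 0.90, adjusted p = 0.281). Hist1h4c, an H4 gene, had 18 and 7 counts in Malt1_PD, 2 and 8 in Malt1_WT, and 5 and 4 in Vector libraries, and Hist1h3a, an H3 gene, had 8 and 6 counts in Malt1_PD, 3 and 6 in Malt1_WT, and 24 and 4 in Vector libraries.

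The genes that make, process and handle histone mRNA were also compared, from lists chosen by function, and none was called by edgeR or by DESeq2. At an unadjusted p under 0.05 edgeR gave 4 such results over the 5 lists and 3 comparisons, those of Upf1 and E2f3 for Malt1_PD against Vector and of Hinfp and Chaf1b for Malt1_WT against Vector, and DESeq2 gave 0. For edgeR this was 2 of 89 genes (2.25%) in each of the comparisons with Vector and 0 of 89 between Malt1_PD and Malt1_WT, against 8.61%, 7.09% and 1.92% of all genes. Of 22 genes for histone mRNA 3′ end processing, stem-loop binding and decay, 18 were tested and 0 were called in each comparison, with median log2 fold changes of 0.02, 0.01 and 0.03 for Malt1_PD against Vector, Malt1_WT against Vector and Malt1_PD against Malt1_WT. Slbp, the stem-loop binding protein, was at 60.6 and 64.3 CPM in Malt1_PD, 60.1 and 56.0 CPM in Malt1_WT libraries, and 63.4 and 58.4 CPM in Vector libraries. Upf1, a helicase needed for histone mRNA decay, had the smallest p for Malt1_PD against Vector, at 154 ± 1.61 CPM in Malt1_PD and 131 ± 9.99 CPM in Vector cells (SD, n = 2 each). Its log2 fold change was 0.23 (SE 0.09, adjusted p = 0.540), followed by Ncbp2 of the cap-binding complex at 0.23 (SE 0.10, adjusted p = 0.581). Npat, the coactivator of histone gene transcription, was at 49.5 ± 5.24 CPM in Malt1_WT libraries and 57.5 ± 7.90 CPM in Vector cells, with a log2 fold change of -0.21 (SE 0.12, adjusted p = 0.773). Between Malt1_PD and Malt1_WT, the smallest p was that of Zfp473, a zinc finger protein of the U7 machinery, at 3.92 CPM in Malt1_PD and 3.03 CPM in Malt1_WT cells on average and a log2 fold change of 0.38 (SE 0.24, adjusted p = 1).

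Of 16 genes for histone gene transcription and the cyclin E-CDK2 drive into S phase, all were tested and 0 were called in each comparison, with medians of 0.03, 0.01 and 0.0042. E2f3, an E2F transcription factor, had a log2 fold change of 0.20 for Malt1_PD against Vector (SE 0.08, adjusted p = 0.576). Hinfp, the factor that binds H4 promoters, was at 28.6 ± 0.93 CPM in Malt1_WT libraries and 23.7 ± 1.55 CPM in Vector cells, a log2 fold change of 0.27 (SE 0.11, adjusted p = 0.665). Of 28 S-phase and replication genes, 0 were called in each comparison, with medians of 0.0021, -0.03 and 0.05. Mcm5, a subunit of the replicative helicase, was at 295 and 291 CPM in Malt1_PD, 267 and 280 CPM in Malt1_WT libraries, and 271 and 257 CPM in Vector libraries. Mcm2, of the same helicase, was at 232 ± 3.28 CPM in Malt1_PD and 207 ± 7.15 CPM in Vector cells, a log2 fold change of 0.16 (SE 0.08, adjusted p = 0.605). For Malt1_WT against Vector, 7 of the 28 lay above and 21 below 0. The smallest p there were those of Gins2, with a log2 fold change of -0.22 (SE 0.11, adjusted p = 0.732), and Tyms, with -0.17 (SE 0.10, adjusted p = 0.792).

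Of 11 replication-independent histone variants, 10 were tested and 0 were called, with medians of -0.11, -0.08 and -0.0036. H1f0 was at 226 ± 12.2 CPM in Malt1_WT libraries and 258 ± 22.7 CPM in Vector cells, a log2 fold change of -0.19 (SE 0.09, adjusted p = 0.719). H2afv, an H2A.Z form, was at 35.1 ± 0.29 CPM in Malt1_PD and 42.6 ± 7.06 CPM in Vector cells, a log2 fold change of -0.28 (SE 0.12, adjusted p = 0.585). Of 18 histone chaperones and chromatin assembly genes, 0 were called, with medians of -0.04, -0.03 and 0.01. Chaf1b, a subunit of the chromatin assembly factor CAF-1, was at 31.6 ± 0.48 CPM in Malt1_WT libraries and 37.6 ± 3.70 CPM in Vector cells, a log2 fold change of -0.25 (SE 0.10, adjusted p = 0.674).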

How the data were processed

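Total RNA of 6 libraries was sequenced, 2 in each of 3 groups, in pairs of 150-base reads. The authors deposited whole-number read counts per gene, not normalised, beside the length of each gene model. Per the submitters' processing notes, the tools were featureCounts 1.6.3, STAR 2.7.3a and Trim Galore 0.6.0, on build GRCm38.p6. Whether counting used strand, and how it treated reads with several matches, is not given in the sources used here. The 6 deposited log2 RPKM columns per sample were not used.

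The fit used edgeR 4.0.16 under R 4.3.3 (filterByExpr by group, TMM factors, glmQLFit and glmQLFTest, a mean per group, all 6 libraries, no covariate). Benjamini-Hochberg adjustment was over all 14675 genes that passed the filter, and genes under 0.05 were called. The common dispersion was 0.0101, with 3 residual degrees of freedom. SEs come from the quasi-likelihood F. DESeq2 1.42.0 and limma-voom 3.58.1 were alternatives, as were DESeq2 size factors, no filter, a fit of 2 groups, the replicate number as a block, removal of a length trend, and each library left out. The fit was tested on simulated data.

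The genes, lists, length split at 1000 nt and rule for naming genes were chosen with earlier results of these data known. Named were Hist1h1a and Hist1h1c, the 3 genes of each type with the highest mean CPM, and in each comparison the 3 tested histone genes with the smallest p in each direction. The rule also took the 2 genes of each list with the smallest p in each comparison, but only some of these are named above. Some genes, such as Slbp and H2afz, are named outside the rule. The labels' protocols state no test, and protein sequences were not analysed here.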

Additional observations from a re-analysis of the deposited data

How the results depend on the processing

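The number of histone genes called was 0 in each comparison under all 13 alternatives. The median log2 fold change over the tested histone genes was -0.31 to 0.42 for Malt1_PD against Vector, -0.38 to 0.07 for Malt1_WT against Vector and -0.06 to 0.53 for Malt1_PD against Malt1_WT when each library was left out in turn. The lowest value of the first came without Malt1_PD replicate 1, and the cause was not tested. Among the genes named in each comparison, directions that turned when a library was left out were those of Hist1h1a for Malt1_WT against Vector (-0.67 to 0.63), Hist1h1c for Malt1_PD against Malt1_WT (-0.026 to 0.14) and Hist1h1e for Malt1_PD against Malt1_WT (-0.43 to 1.94). Of all 28 tested histone genes, 16, 16 and 13 turned in the 3 comparisons when some 1 library was left out, 10 of them without Malt1_PD replicate 1 in each comparison that uses it. The log2 ratio of summed CPM ranged over -0.20 to 0.18, -0.32 to 0.04 and -0.04 to 0.31 in the 3 comparisons, with no value for limma-voom and the replicate block, which give none. The ratio without Hist1h1c and the medians by type with a library left out were chosen after seeing the data, and 19 of those medians moved by more than the SD between libraries while 71 moved by less. Another 256 alternative values of single genes kept their direction and their side of the threshold.

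Over all genes, 1 was called in each comparison, against 94 higher and 94 lower for Malt1_PD against Vector and 52 and 61 for Malt1_WT against Vector with no filter, and 648 and 280, and 468 and 131, without Vector replicate 2. With the replicate number as a block, 0 histone genes were called and all genes called were 3 higher and 6 lower, 4 and 2, and 0 and 1 in the 3 comparisons. The labels give only a shared number, and the deviations of same-numbered libraries had a correlation of 0.01, 0.00 and 0.29 between pairs of groups. The tested histone genes had a median of 20 counts per library, and whether depth or the spread between libraries limits the calls was not tested.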
